A study of Gallus gallus with 12 samples.

Results

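Chicken pineal glands that had received 1 h of light were compared with each other across 3 times of day. All 6 light arrays of the series were taken, 2 at each time, out of 12 arrays in all. The other 6 arrays, from glands kept in the dark, served to show whether a difference between times after light was also found without light. They also entered the normalization, the filter, the choice of probe sets and the estimate of spread. The glands came from male chicks 8 days old kept for 7 days in cycles of 12 h light and 12 h dark and then for a day in constant darkness. Pulses began at circadian time (CT) 6, CT14 or CT22, which are hours of the subjective day, the early and the late subjective night, and glands were collected as the pulse ended. Each array carried RNA pooled from 6 glands, and the 2 samples of a condition are stated to be biological samples. Here the groups are called CT6, CT14 and CT22 light, and the replicates array 1 and array 2 as numbered in the labels. No strain, transgene or drug is named in the labels. The comparison asks which time-of-day differences remain after 1 h of light.

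The avian pineal gland contains photoreceptor-like cells that hold a circadian clock, sense light directly and make melatonin. In the clock, activators (CLOCK, NPAS2 and the ARNTL proteins) drive genes of the PER, CRY, BHLHE and NR1D families, whose products repress the activators or their genes. Melatonin is made from tryptophan through TPH1, DDC, AANAT and ASMT, and AANAT carries much of its nightly rhythm. Light acts on this tissue both by suppressing melatonin synthesis and by shifting the phase of the clock.

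Values are log2 intensities after quantile normalization, which gives every array the same distribution, so that a shift shared by most genes cannot be seen. Differences are log2 differences with the standard error of a limma fit to all 12 arrays, and "past the threshold" means an adjusted p (Benjamini-Hochberg over 23063 probe sets) under 0.05. A mean of log2 3.73 was the lower limit for testing, and levels below it are given with that remark. In this bulk RNA, fewer cells of a type and less RNA per cell cannot be told apart. Of 11 pinealocyte markers, 7 were tested and the others had no tested probe set. TPH1 read 12.93 to 13.26 and ASMT, the last enzyme of melatonin synthesis, 12.64 to 12.88 on the light arrays, near the top of the scale. The deposited medians of the light arrays lay between 21.6 and 25.2. The light arrays of one time correlated at r = 0.969 to 0.971 across probe sets, and those of different times at 0.961 to 0.971. The first principal component of the light arrays, with 29.4% of their variance, set CT22 apart from CT6 and CT14. The second (20.6%) separated CT6 from CT14, and the third (17.8%) separated the 2 CT22 light arrays from each other. The ratio of actin signal at the 3′ end to that at the 5′ end, a measure of RNA length, was 4.23 and 3.82 at CT6, 3.28 and 3.09 at CT14, and 3.62 and 3.98 at CT22, so that it was lowest in both CT14 light arrays.

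The 3 light groups differed at 919 of 23063 probe sets (3.98%) by a moderated F test. Of these, 392 (42.7%) were highest at CT14, 281 (30.6%) at CT22 and 246 (26.8%) at CT6. Among all probe sets tested these shares were 30.5%, 36.6% and 32.9%. Lowest at CT22 were 530 (57.7%), at CT6 228 (24.8%) and at CT14 161 (17.5%), against 35.7%, 32.1% and 32.3% of all probe sets tested. The most frequent order, highest at CT14 and lowest at CT22, held for 344 of the 919 (37.4%), against 17.4% of all probe sets tested. The range between the highest and the lowest time exceeded 1 log2 unit at 270 of the 919 (29.4%), against 4.96% of all probe sets tested. The 919 were chosen by such differences. The F count fell to 575 without CT22 light array 2.

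The times were then compared in pairs, and the 3 comparisons share arrays. Between CT6 and CT14, 160 probe sets differed (0.694%), 89 higher at CT14 (0.386%) and 71 lower (0.308%). Between CT14 and CT22, 789 differed (3.42%), 284 higher at CT22 (1.23%) and 505 lower (2.19%). Between CT6 and CT22, 724 differed (3.14%), 301 higher at CT22 (1.31%) and 423 lower (1.83%). Counted as genes, these were 94 of 10406 (0.903%), 434 (4.17%) and 436 (4.19%). Of all genes, 0.500% were higher and 0.404% lower at CT14 than at CT6, 1.55% higher and 2.62% lower at CT22 than at CT14, and 1.77% higher and 2.42% lower at CT22 than at CT6. These shares are the background for the lists below. CT6 and CT14 light glands were thus the pair with the fewest differences, and CT22 stood apart from both. The balance of higher and lower probe sets depended on the scaling. On the deposited scale, where the median of all probe sets was shifted by 0.131 and 0.154, 330 were higher and 203 lower at CT22 than at CT14, and 472 were higher and 128 lower than at CT6. With arrays centred on their median, 58 were higher and 91 lower at CT14 than at CT6. The counts also moved with single arrays. Leaving out either CT6 or either CT14 light array left 83 to 94 probe sets between CT6 and CT14. Without CT14 light array 1, CT14 light array 2 or CT22 light array 2, those between CT14 and CT22 numbered 493, 400 and 495. Without CT6 light array 1, CT6 light array 2 or CT22 light array 2, those between CT6 and CT22 numbered 371, 282 and 351. With the actin ratio as a covariate, 30, 179 and 790 probe sets passed, and all 160, 789 and 724 kept their sign. Without a variance trend, 15, 333 and 192 passed. Of the genes named below for CT14 minus CT6, only BMP2, GNB3 and SH3GLB2 passed under every alternative. The other calls named for that pair were lost with the covariate, without the trend or under further alternatives.

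Among the increases at CT22, the largest was that of a chaperone. HSPB9, a small heat shock protein, read 7.20 and 6.98 at CT6, 7.41 and 7.39 at CT14, and 11.92 and 12.08 at CT22. Both CT22 arrays stood far above the other 4. CT22 exceeded CT14 by 4.59 ± 0.13, adjusted p = 3.72e-10, and CT6 by 4.91 ± 0.13, adjusted p = 1.56e-10. The dark means at CT6, CT14 and CT22 were 6.95, 7.04 and 6.79, so that no such difference was seen in the dark. The difference between the light and the dark time differences was 4.85 ± 0.18 for CT22 minus CT14 and 5.07 ± 0.18 for CT22 minus CT6, and both passed.

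HSPH1, a nucleotide exchange factor of HSP70, read 7.26 and 7.30 at CT6, 7.37 and 7.86 at CT14, and 10.04 and 10.17 at CT22. HSPB8, a small heat shock protein that works with BAG3, read 5.38 and 4.82 at CT6, 5.35 and 4.73 at CT14, and 7.12 and 7.81 at CT22. BAG3, an HSP70 co-chaperone that directs proteins to autophagy, read 9.11 and 9.39 at CT6, 9.63 and 9.66 at CT14, and 11.50 and 11.67 at CT22. In each case both CT22 arrays lay above all 4 others. Genes named for an increase or decrease were chosen among those whose arrays did not overlap between the times compared. For them, such separation, here and elsewhere, is part of the choice and adds nothing to the call. The differences between CT22 and CT14 were 2.49 ± 0.33 for HSPH1, 2.43 ± 0.32 for HSPB8 and 1.94 ± 0.11 for BAG3. A further probe set of BAG3 gave 2.06, and one of HSPH1, close to the limit for testing, gave 0.86 and did not pass. In the fit with the actin covariate, the HSPH1 and HSPB8 calls against CT14 were lost, and all the others of these genes against CT14 or CT6 held. HSPA2, an HSP70 family chaperone, differed at all times. It read 10.27 and 10.47 at CT6, 11.02 and 11.12 at CT14, and 12.63 and 12.62 at CT22, and rose in steps of 0.70 ± 0.08 from CT6 to CT14 and 1.56 ± 0.08 from CT14 to CT22. The pulses at these times were given to different birds, so that the steps compare groups.

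The heat shock list, drawn up for cytosolic chaperones but including the mitochondrial chaperonin HSPD1, held 35 tested genes. At CT22, 17 were higher than at CT14 and 0 lower (median difference 0.44), against 1.55% of all genes higher and a median of 0.01. Against CT6, 16 were higher at CT22 and 1 lower (median 0.38), against 1.77% of all genes higher. Between CT6 and CT14, 2 were higher at CT14 (HSPA2 and HSPA8) and 1 lower, with a median of 0.07. Beside those above, the genes higher at CT22 than at both other times included DNAJA4 (1.19 against CT14 and 1.47 against CT6), DNAJA1 (0.89 and 1.29), the mitochondrial chaperonin HSPD1 (0.66 and 0.87), HSPA4L (0.67 and 0.74), HSPA8 (0.49 and 0.74) and the HSP90 co-chaperones CHORDC1 (0.99 and 1.59) and FKBP4 (0.56 and 0.64). The count against CT14 was 9 with the actin ratio as a covariate and 10 without a variance trend. In the dark, 9 of the 35 were higher at CT22 than at CT14 (background 3.70% of genes) and 7 higher than at CT6 (0.865%). The list was therefore not flat across the dark times. The rise of the light over the dark difference passed for 6 genes against CT14 (background 1.69%) and for 5 against CT6 (0.211%). Without CT14 light array 1, CT14 light array 2 or CT22 light array 1, CHORDC1 lost its call against CT14, at 0.91 to 1.07 over the light arrays left out.

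CRYAB, another small heat shock protein, was instead highest at CT6. It read 10.33 and 10.13 at CT6, 8.82 and 8.76 at CT14, and 8.58 and 8.62 at CT22, so that both CT6 arrays lay above the other 4. CT14 minus CT6 was -1.44 ± 0.17 and CT22 minus CT6 -1.63 ± 0.17. CT22 minus CT14 was -0.19 and did not pass (adjusted p = 0.675). Its dark means were 9.99, 8.65 and 8.72, and the light differences did not differ from the dark ones past the threshold (interaction adjusted p = 0.934 and 0.645).

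Some of the chaperones of the endoplasmic reticulum (ER), which fold secreted and membrane proteins and are induced by the unfolded protein response, were also highest at CT22. HSPA5, the main ER HSP70, read 10.91 and 11.03 at CT6, 11.33 and 11.32 at CT14, and 12.43 and 12.39 at CT22. HERPUD1, a factor of ER-associated degradation, read 7.60 and 7.71 at CT6, 7.98 and 7.97 at CT14, and 9.56 and 9.74 at CT22. For both genes the CT22 arrays lay above the rest. CT22 exceeded CT14 by 1.09 ± 0.07 for HSPA5 (adjusted p = 1.46e-06) and by 1.68 ± 0.12 for HERPUD1 (adjusted p = 2.09e-06). CRELD2, SDF2L1, HSP90B1, PDIA6 and DNAJB9, all ER chaperones or their partners, were higher than at CT14 by 1.13, 0.94, 0.76, 0.73 and 0.73. Of 34 tested ER genes, 11 were higher at CT22 than at CT14 and 0 lower (median 0.31), and 10 were higher than at CT6 and 0 lower (median 0.25). Of all genes, 1.55% and 1.77% were higher. The estimate was above 0 in 27 and 26 of the 34, and most of the list did not pass. Between CT6 and CT14 only HSPA5 passed, by 0.35 ± 0.07, a call that was lost without any 1 of the CT6 and CT14 light arrays, at 0.29 to 0.41. In the dark, 5 ER genes were higher at CT22 than at CT14 (background 3.70% of genes) and 4 higher than at CT6 (0.865%). The light difference exceeded the dark one for 4 genes against CT14 (background 1.69%), HERPUD1, CRELD2, DNAJB9 and CANX, and for 3 against CT6 (0.211%), HSPA5 (0.79), HSP90B1 (0.61) and HERPUD1 (1.52). The calls for CRELD2, DNAJB9 and CANX were lost without either CT14 light array, either CT22 dark array or CT22 light array 2, among others. The call for HSP90B1 was lost without, among others, either CT22 light array. P4HA2 and SERPINH1, which modify and fold collagen in the ER, followed the same order. P4HA2 read 6.34 and 6.33 at CT6, 6.27 and 6.42 at CT14, and 7.91 and 8.10 at CT22, and SERPINH1 read 9.60 and 9.55 at CT6, 9.69 and 9.69 at CT14, and 10.51 and 10.76 at CT22. Among 15 genes of a list of ATF4 and its targets, which respond to amino acid and ER stress, 2 were higher and 2 lower at CT22 than at CT14. Of all genes these shares were 1.55% and 2.62%. ATF4 itself, 1 of these 2 higher genes, was higher by 0.34 ± 0.08, a call that was lost without CT14 light array 2 or either CT22 light array (0.28 to 0.40). The estimate for CEBPB, also of the list, was -0.55. The amino acid transporter SLC7A3 was higher by 0.60 against CT14 and 0.79 against CT6, the former lost without CT14 light array 2 or CT22 light array 2.

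**Figure D1:**
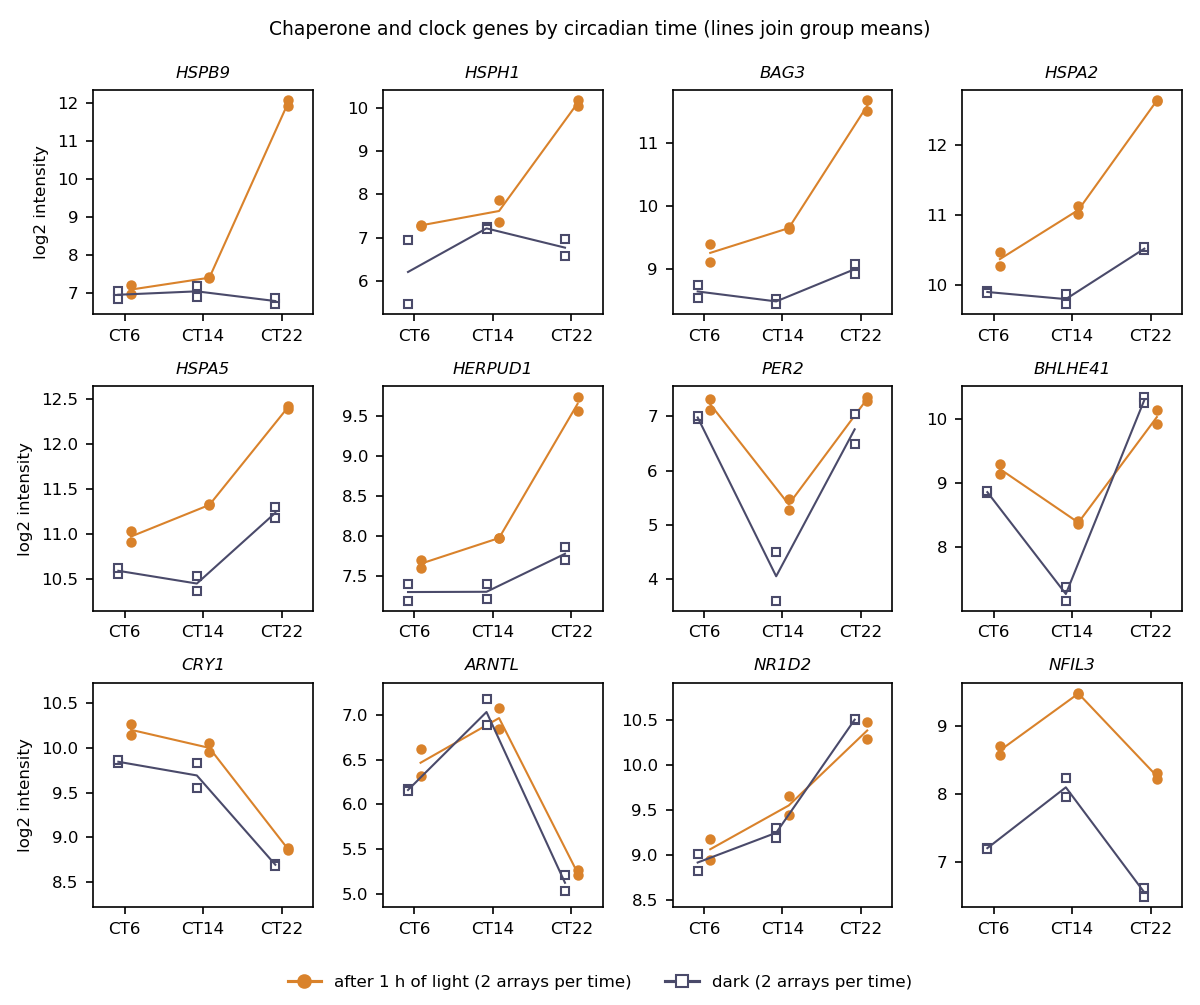
Log2 intensity (vertical axes, each panel with its own range) of 12 chaperone, clock and clock output genes at circadian times CT6, CT14 and CT22. Orange dots are the 2 light arrays and open squares the 2 dark arrays of each time, and lines join group means. HSPB9 stayed between 6.98 and 7.41 on the CT6 and CT14 light arrays and reached 11.92 and 12.08 at CT22, while PER2 was lowest at CT14 with and without light.

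Several clock genes kept large time differences after light, while the median differences of the clock repressor list were smaller than in the dark. PER2, a repressor of the clock and in many vertebrates a light-responsive gene, read 7.12 and 7.33 at CT6, 5.48 and 5.29 at CT14, and 7.37 and 7.29 at CT22. Both CT14 arrays lay below the other 4, and CT6 and CT22 did not differ past the threshold (0.10 ± 0.25). The difference was -1.85 ± 0.25, adjusted p = 0.00245 from CT6 to CT14, and 1.95 ± 0.25, adjusted p = 4.90e-04 from CT14 to CT22. The dark means were 6.98, 4.05 and 6.76, a wider range. The light and dark time differences of PER2 did not differ past the threshold (CT14 minus CT6 1.08, adjusted p = 0.312). A further 3 probe sets of PER2 had the same signs in both comparisons. PER3 read 6.02 and 5.97 at CT6, 4.60 and 4.67 at CT14, and 7.28 and 7.31 at CT22, in the order CT14, CT6, CT22. Only its CT22 to CT14 difference passed, 2.66 ± 0.34, adjusted p = 4.90e-04.

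BHLHE41, a transcriptional repressor of E-box genes, read 9.14 and 9.29 at CT6, 8.36 and 8.40 at CT14, and 10.13 and 9.92 at CT22. The 3 groups did not overlap, and all 3 differences passed, -0.84, 1.65 and 0.81 for CT14 minus CT6, CT22 minus CT14 and CT22 minus CT6, each with a standard error of 0.10. In the dark the CT22 minus CT14 difference was 3.03, and the light difference was smaller (interaction -1.38 ± 0.14, adjusted p = 4.58e-04). Its paralog BHLHE40 read 7.54 and 7.63 at CT6, 7.59 and 7.44 at CT14, and 7.68 and 7.98 at CT22, with overlap between CT6 and CT14, both CT22 arrays above the other 4, and no light difference past the threshold, against dark means of 6.71, 5.91 and 7.99. The CT22 minus CT14 difference was 2.08 in the dark and 0.31 after light (interaction adjusted p = 0.00353, lost with the actin ratio as a covariate or without a variance trend). CRY1, which represses CLOCK and ARNTL, was lowest at CT22. It read 10.14 and 10.26 at CT6, 9.95 and 10.05 at CT14, and 8.86 and 8.89 at CT22, so that both CT22 arrays lay below the rest. CT22 minus CT14 was -1.13 ± 0.09 and CT22 minus CT6 -1.33 ± 0.09. The dark differences were -1.00 and -1.15. NR1D2, a nuclear receptor that represses ARNTL, read 8.95 and 9.18 at CT6, 9.66 and 9.44 at CT14, and 10.48 and 10.30 at CT22 and was higher at CT22 than at CT14 by 0.84 ± 0.10 and than at CT6 by 1.32 ± 0.10. CRY2 showed 0.26 ± 0.09 and 0.30 ± 0.09, and neither passed. A further CRY2 probe set of lower intensity passed for CT22 minus CT6 (0.47, adjusted p = 0.0451), and another gave -0.11 and 0.20 for the same differences, neither past the threshold. Of 8 tested clock repressors, 4 were thus higher and 1 lower at CT22 than at CT14, a count that was the same in every alternative processing. Between CT6 and CT14, 2 were lower, and between CT6 and CT22, 2 were higher and 1 lower. Of all genes, 1.55% were higher at CT22 than at CT14 and 1.77% than at CT6. In the dark, 6 of the 8 were higher and 1 lower at CT22 than at CT14 (background 3.70% and 4.41% of genes). The median was 1.67, against 0.57 after light. For CT22 minus CT6, 4 were higher and 1 lower in the dark, with a median of 0.76 against 0.27 after light. The CT22 minus CT14 interaction was above 0 in 0 of the 8 and passed for 2.

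The activators went the other way. ARNTL, the partner of CLOCK, read 6.62 and 6.31 at CT6, 6.85 and 7.08 at CT14, and 5.27 and 5.21 at CT22, and both CT22 arrays lay below the rest. CT22 minus CT14 was -1.72 ± 0.17, adjusted p = 5.89e-05, and CT22 minus CT6 was -1.23 ± 0.17, adjusted p = 0.00146. ARNTL2 read 7.98 and 7.98 at CT6, 9.02 and 9.01 at CT14, and 7.78 and 7.54 at CT22, and was highest at CT14, with 1.04 ± 0.10 for CT14 minus CT6 and -1.36 ± 0.10 for CT22 minus CT14. CLOCK was lower at CT22 than at CT14 (-0.58 ± 0.14), a call lost without CT14 light array 1 or 2 or CT22 light array 1 (-0.73 to -0.43). Of 6 tested activators, 3 were lower at CT22 than at CT14 and 0 higher, 1 was lower than at CT6, and 1 was higher at CT14 than at CT6. The shares of all genes called in these directions were 2.62% lower, 2.42% lower and 0.5% higher. The light and dark time differences of the activators did not differ past the threshold for any gene. The bZIP factor NFIL3, a repressor under clock control, read 8.70 and 8.58 at CT6, 9.48 and 9.47 at CT14, and 8.22 and 8.30 at CT22, and differed by 0.83 ± 0.11 and -1.21 ± 0.11 for CT14 minus CT6 and CT22 minus CT14. Its dark means were 7.21, 8.10 and 6.56, more than a log2 unit lower at each time. The bZIP activator HLF was higher at CT22 than at CT14 by 0.50, a call lost without CT14 light array 2 or either CT22 light array (0.35 to 0.65). None of 5 clock kinases and degradation factors differed between any pair of light groups past the threshold.

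Melatonin pathway genes kept part of their order. AANAT, the enzyme whose activity sets the nightly melatonin rhythm, read 8.46 and 8.58 at CT6, 9.45 and 9.58 at CT14, and 9.28 and 9.35 at CT22. CT14 and CT22 were both above CT6, by 1.00 ± 0.10, adjusted p = 3.09e-04 and by 0.80 ± 0.10, adjusted p = 7.02e-04. CT22 and CT14 did not differ past the threshold (-0.20 ± 0.10). In the dark the means were 8.76, 9.37 and 10.15, rising up to CT22 (0.77 for CT22 minus CT14). The light CT22 minus CT14 difference fell short of the dark one (interaction -0.97 ± 0.14, adjusted p = 0.00505), a call lost with the actin ratio as a covariate or without a variance trend. DDC, which makes serotonin, read 8.60 and 8.43 at CT6, 9.30 and 9.51 at CT14, and 7.99 and 7.76 at CT22, and the groups did not overlap. It was higher at CT14 than at CT6 by 0.89 ± 0.12, and CT22 minus CT14 was -1.53 ± 0.12. The latter was a larger drop than in the dark (-0.80, interaction adjusted p = 0.0412), an interaction lost without any 1 of the CT14 arrays, the CT22 dark arrays or CT22 light array 2. DDC at CT22 also lay below CT6 (-0.64 ± 0.12), a call lost without CT6 light array 1 or CT22 light array 2. GCH1, which makes the cofactor of TPH1, read 9.84 and 9.87 at CT6, 10.44 and 10.50 at CT14, and 9.42 and 9.30 at CT22. It too was highest at CT14 (0.62 ± 0.08 over CT6) and lowest at CT22 (-1.12 ± 0.08 for CT22 minus CT14), with dark means of 9.88, 10.31 and 9.33. TPH1, read near the top of the scale, was lower at CT22 than at CT6 (-0.26 ± 0.05), a call lost without either CT6 light array or CT22 light array 2. ASMT did not differ between the light groups past the threshold. Of 12 tested genes, 3 were higher at CT14 than at CT6 and 0 lower, against 0.5% and 0.404% of all genes. With the actin ratio as a covariate, or without a variance trend, none of the 3 passed in that comparison.

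Photoreceptor genes moved in both directions. GNB3, a transducin subunit, read 7.95 and 7.54 at CT6, 9.45 and 9.36 at CT14, and 8.34 and 8.06 at CT22, and was higher at CT14 than at CT6 by 1.66 ± 0.14, adjusted p = 8.47e-05. It was lower again at CT22 (-1.20 ± 0.14 for CT22 minus CT14). A further probe set gave 2.20 and -1.45 for these differences. The dark means were 7.66, 9.66 and 8.63. OPNP, pinopsin, the pineal photopigment, read 10.64 and 10.88 at CT6, 10.27 and 10.35 at CT14, and 10.03 and 10.10 at CT22, and CT22 minus CT6 was -0.70 ± 0.09. RPE65, a visual cycle isomerase, read 10.93 and 11.06 at CT6, 10.44 and 10.45 at CT14, and 10.05 and 10.01 at CT22, with -0.96 ± 0.10 for CT22 minus CT6. CNGB3 and CNGA1, subunits of cyclic nucleotide-gated channels, were lower at CT22 than at CT6 (-0.85 ± 0.13 and -1.45 ± 0.21). They differed in when the low level was reached. CNGB3 read 7.86 and 7.98 at CT6, 7.10 and 7.15 at CT14, and 7.14 and 7.01 at CT22, low from CT14 on, while CNGA1 read 7.26 and 7.39 at CT6, 7.52 and 7.74 at CT14, and 6.18 and 5.58 at CT22, low at CT22. PPEF2, a phosphatase of photoreceptors, read 7.21 and 7.19 at CT6, 8.02 and 8.48 at CT14, and 4.97 and 4.71 at CT22. Its CT22 arrays lay below the other 4, and CT22 minus CT14 was -3.40 ± 0.23, adjusted p = 2.09e-06. ABCA4, a retinoid transporter, was lower at CT22 than at CT14 (-0.79 ± 0.16), a call lost without either CT14 light array or CT22 light array 2. Of 27 tested genes of the photoreceptor list, 2 were higher and 3 lower at CT14 than at CT6, 1 higher and 5 lower at CT22 than at CT14, and 2 higher and 4 lower at CT22 than at CT6. The shares of all genes higher and lower were 0.5% and 0.404%, 1.55% and 2.62%, and 1.77% and 2.42%. In the dark, 6 of the 27 were higher and 2 lower at CT22 than at CT14 (background 3.70% and 4.41% of genes). The interaction for that pair passed below 0 for 4 of the 27 and for 134 of 10406 genes. The calls of OPNP, RPE65 and CNGB3 between CT6 and CT14 (-0.45, -0.55 and -0.80) were each lost without 3 or more of the CT6 and CT14 light arrays left out singly.

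Several sterol genes were highest at CT14. HMGCS1, an early enzyme of cholesterol synthesis, read 9.46 and 9.37 at CT6, 10.11 and 10.20 at CT14, and 9.53 and 9.45 at CT22. FDFT1, squalene synthase, read 8.00 and 8.21 at CT6, 8.93 and 9.01 at CT14, and 8.24 and 8.35 at CT22. For both, the CT14 arrays lay above the other 4. CT14 exceeded CT6 by 0.74 ± 0.09, adjusted p = 0.00105 for HMGCS1 and by 0.87 ± 0.10, adjusted p = 0.00105 for FDFT1. MSMO1, INSIG1 and SQLE were higher at CT14 than at CT6 by 0.83, 0.83 and 0.75. Further probe sets of INSIG1 gave 0.66 and 0.50 for this difference, neither past the threshold. Of 20 tested sterol genes, 7 were higher at CT14 than at CT6 and 0 lower (median 0.37), against 0.500% of all genes higher. At CT22, 7 were lower than at CT14 and 0 higher (median -0.59), against 2.62% of all genes lower. None differed between CT6 and CT22 past the threshold, with a median of 0.00. The actin ratio was lowest on the CT14 arrays, and its part in this was not tested beyond the covariate fit, in which 1 gene was higher at CT14 than at CT6 and 3 were lower at CT22 than at CT14. Without CT14 light array 2, these counts were 4 and 3, and on the deposited scale 2 were lower at CT22 than at CT14. No gene of the list passed between CT6 and CT14 without a variance trend. In the dark, 4 of the 20 were higher at CT14 than at CT6 (background 1.99% of genes) and 8 lower at CT22 than at CT14 (4.41%). The difference between the light and dark time differences passed for none of the 20. HMGCS1 had dark means of 8.36, 8.78 and 7.91, lower than the light values at every time and, like them, highest at CT14.

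**Figure D2:**
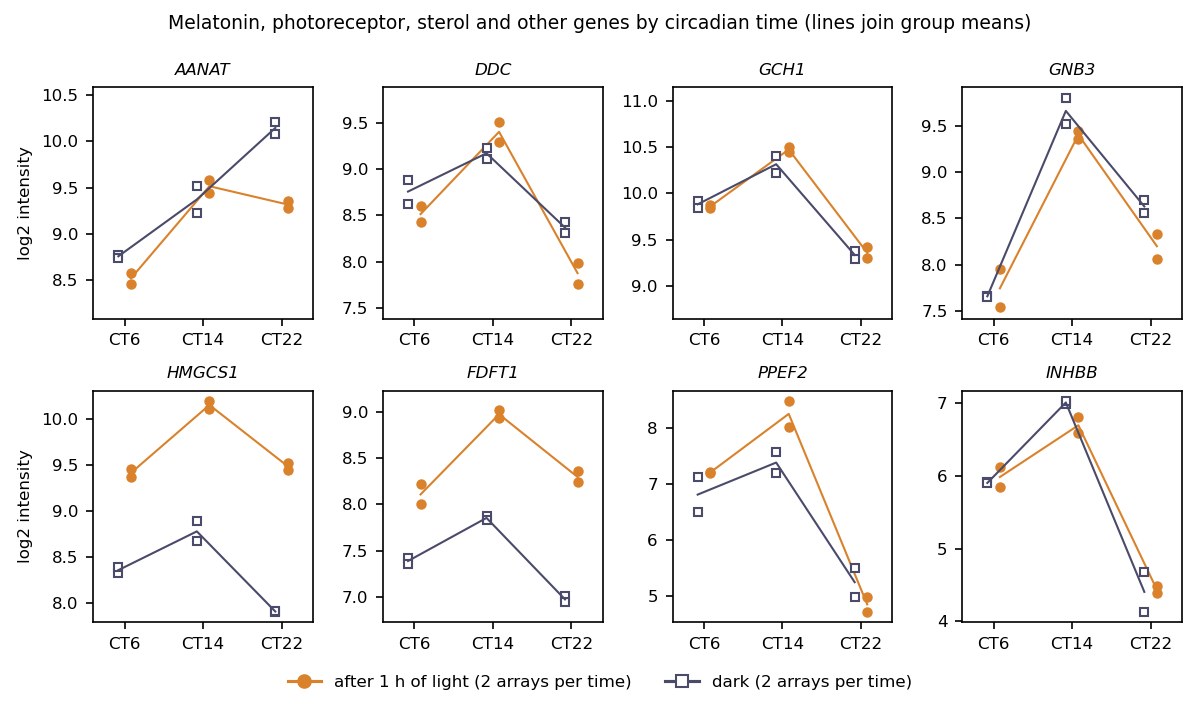
Log2 intensity (vertical axes, each panel with its own range) of melatonin (AANAT, DDC, GCH1), photoreceptor (GNB3, PPEF2), sterol (HMGCS1, FDFT1) and INHBB genes by circadian time. Orange dots are light arrays and open squares dark arrays, 2 of each per time, with lines joining group means. The light arrays of DDC, GCH1, GNB3 and the sterol genes peak at CT14, and AANAT at CT22 is lower after light (mean 9.32) than in the dark (10.15).

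Genes that handle thyroid hormone were represented by 8 tested members, of which 1 was higher at CT14 than at CT6, 1 was higher at CT22 than at CT14, 3 were higher at CT22 than at CT6 (DIO2, DIO3 and SLCO1C1) and 0 were lower. The 3 became 1 without either CT6 light array or CT22 light array 2, without a filter or without a variance trend, and 2 without CT22 light array 1. DIO2, which makes the active hormone, read 9.73 and 9.61 at CT6, 10.54 and 10.61 at CT14, and 10.58 and 10.57 at CT22, with CT6 below the other 4 arrays (0.90 ± 0.10 for CT14 minus CT6 and 0.90 ± 0.10 for CT22 minus CT6). DIO3, which inactivates the hormone, was higher at CT22, by 1.46 ± 0.28 over CT14. In the dark it was lower at CT22 than at CT14 (-1.11), and the interaction was 2.58 ± 0.39, adjusted p = 0.0066. The light difference of DIO3 lost its call without CT14 light array 2 or CT22 light array 2 (1.25 to 1.68). Of 33 glycolysis and hypoxia genes, 2 were higher and 4 lower at CT22 than at CT14, and 2 higher and 5 lower than at CT6. The glucose transporter SLC2A1, lactate dehydrogenase LDHA and the stress gene NDRG1 were lower at CT22 than at CT14 (-0.73, -0.86 and -0.78). P4HA2 and the kinase PDK1 were the 2 higher, and PDK1 (0.36) lost its call without either CT14 light array or CT22 light array 2. Of 14 fatty acid synthesis genes, ELOVL2, an elongase of long polyunsaturated fatty acids, was lower at CT22 than at CT14 (-1.77 ± 0.18). Of 25 immediate early genes, 0 passed between CT6 and CT14, 2 were higher and 1 lower at CT22 than at CT14, and 2 were higher and 2 lower at CT22 than at CT6. Of 30 cyclic nucleotide genes, 2 were higher and 0 lower at CT22 than at CT14. For the lists of this paragraph, the shares of all genes are 0.5% higher and 0.404% lower at CT14 than at CT6. They are 1.55% and 2.62% at CT22 against CT14, and 1.77% and 2.42% at CT22 against CT6. None of 58 ribosomal, 26 proteasome or 50 oxidative phosphorylation genes differed between any pair of light groups past the threshold.

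Genes outside these lists were led, between CT6 and CT14, by G0S2, an inhibitor of the triglyceride lipase ATGL. It read 5.76 and 5.82 at CT6, 7.52 and 7.84 at CT14, and 5.73 and 5.81 at CT22, so that both CT14 arrays lay above the other 4 (1.89 ± 0.24, adjusted p = 0.00137). SH3GLB2, an SH3-domain protein of membranes, read 8.06 and 8.06 at CT6, 9.55 and 9.56 at CT14, and 7.59 and 7.36 at CT22, and the replicate arrays of CT6 and of CT14 were within 0.01 of each other. CT14 minus CT6 was 1.49 ± 0.11, adjusted p = 3.00e-05, and CT22 minus CT14 was -2.08 ± 0.11. MCF2L2, a guanine nucleotide exchange factor, gave 1.46 ± 0.15 and -1.91 ± 0.15 for the same pairs of times. BMP2, a secreted growth factor, read 8.36 and 8.07 at CT6, 9.28 and 9.36 at CT14, and 9.88 and 9.85 at CT22, a separate level for each time, with differences of 1.11 ± 0.11, 0.54 ± 0.11 and 1.65 ± 0.11. The middle one was lost without any 1 of the CT14 and CT22 light arrays (0.50 to 0.58). SLC6A9, a glycine transporter, and KCNAB1, a potassium channel subunit, were higher at CT14 than at CT6 by 1.79 and 1.50. SLC6A9 lost that call without CT6 light array 1 (1.48) or CT14 light array 1 (1.72), and KCNAB1 lost it without CT6 light array 1 (1.31). Higher genes of the same rank whose calls depended on most single CT6 or CT14 light arrays were PTPRO (1.60), FAM19A1 (1.21), STXBP4 (1.16), HOXA10 (1.15, with a further probe set at -0.19) and IGFBP1 (1.06).

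Lower at CT14 than at CT6, beside PER2 and CRYAB, were SLC28A2, a nucleoside transporter (-1.42), the interferon-induced IFI6 (-1.32), the adhesion molecule CNTN4 (-1.24) and the kinase ULK4 (-1.10). ULK4 read 7.32 and 7.32 at CT6, 6.18 and 6.26 at CT14, and 7.02 and 7.12 at CT22, with both CT14 arrays below the rest. Its 2 further probe sets gave -0.22 each, with adjusted p of 0.868 and 0.902. A further probe set of CNTN4 gave -0.20 and another -1.23, neither past the threshold. The calcium-binding protein CALB2 read 10.07 and 10.42 at CT6, 9.16 and 8.94 at CT14, and 9.52 and 9.55 at CT22, and its difference of -1.19 lost its call without CT6 light array 2 or CT14 light array 2. The granule protein CHGB (-1.49), IFI27L2 (-1.24), AVD (-1.11) and GKAP1 (-1.05) lost theirs without most single CT6 or CT14 light arrays. FAM131B showed the lowest estimate, -2.68 ± 0.49, but its CT14 arrays read 1.98 and 2.15, below the 3.73 limit, and its call was lost without any 1 of those 4 arrays.

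Between CT14 and CT22, PPEF2 led the lower genes. Those stable to leaving out single arrays also included GABRR1, a subunit of ionotropic GABA receptors, INHBB, the inhibin beta B subunit, and IGFBP1. GABRR1 read 5.44 and 5.47 at CT6, 6.30 and 6.15 at CT14, and 4.05 and 3.58 at CT22, the last below the 3.73 limit for testing. INHBB read 6.12 and 5.85 at CT6, 6.59 and 6.81 at CT14, and 4.39 and 4.48 at CT22. IGFBP1, a binding protein of insulin-like growth factors, read 5.88 and 5.89 at CT6, 6.85 and 7.05 at CT14, and 4.69 and 5.09 at CT22. All 3 were highest at CT14 and lowest at CT22, and in each the CT22 arrays lay below the other 4. The differences for CT22 minus CT14 were -2.41 ± 0.21, -2.26 ± 0.20 and -2.06 ± 0.22. G0S2, SLC6A9, SH3GLB2 and MCF2L2 were lower at CT22 than at CT14 as well (-1.91, -2.09, -2.08 and -1.91). NXNL2, related to a photoreceptor survival factor, was higher at CT22 by 1.73 ± 0.29, and TMEFF2, a transmembrane protein, by 1.22 ± 0.14.

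Several large estimates at CT22 rested on 1 array or on levels near or below the 3.73 limit for testing. SELE, an endothelial adhesion molecule, read 3.06 and 1.01 at CT22, and its CT22 minus CT14 difference of -3.03 was -2.01 without CT22 light array 2. TULP1, a photoreceptor protein, read 3.67 and 0.63 there, and its -2.88 became -1.36 without the same array. SHISA3 read 2.78 and 5.19, and its CT22 minus CT6 difference of -2.49 became -1.28 without CT22 light array 1. CHD6 (-1.81, and -0.97 without CT22 light array 1) and LGR6 (-1.87 for CT22 minus CT6, and -1.14 without CT22 light array 2) behaved alike. UTS2 was higher at CT22 than at CT14 by 2.17, and by 1.54 without CT14 light array 1. The phosphatase DUSP8 was lower at CT22 than at CT6 (-2.06, and -1.37 without CT6 light array 2). All of these calls were lost without those arrays. Calls between CT6 and CT22 for STEAP1, B3GNT5, EPSTI1, VNN2, RIPPLY2 and FST (2.20, 1.53, -2.18, -2.03, -1.70 and -1.60) were lost without either CT6 light array, and TMEM27 (1.64) lost its call without CT22 light array 2.

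Markers of other cell types were checked beside these results. None of 5 erythrocyte, 7 lymphocyte, 8 macrophage, 5 choroid plexus or 3 muscle markers differed between any pair of light groups past the threshold. The summed linear intensity of the erythrocyte markers was nevertheless lower at CT14 (6064 and 6530) than at CT6 (9098 and 8601) and CT22 (7965 and 7755). That of the neuron markers was 3865 and 4220 at CT6, 3389 and 3429 at CT14, and 3654 and 3019 at CT22. That of the lymphocyte markers was 2733 and 2462, 2037 and 2583, and 1883 and 2325 at the same times, and that of the macrophage markers 5199 and 4792, 4100 and 4752, and 3693 and 4623. The pinealocyte markers summed to 25958 and 27537 at CT6, 26814 and 27395 at CT14, and 24966 and 23526 at CT22. The glia markers summed to 1094 and 1083, 1143 and 1094, and 1005 and 905 at these times. The endothelium and mural markers summed to 2117 and 2055, 1986 and 1855, and 1734 and 1849. In the pinealocyte, glia and endothelium sums, both CT22 arrays lay below all arrays of the other times. Of the 7 tested pinealocyte markers, 5 passed the F test across the light groups (71.4%, against 5.16% of all genes). Several are melatonin and photoreceptor genes described above, and linear sums weigh the most intense markers most. The pinealocyte sum therefore cannot tell fewer pinealocytes from less RNA of these genes. In the fibroblast, choroid plexus and muscle sums the CT22 arrays overlapped those of the other times. Between CT6 and CT22, 1 of 7 fibroblast markers was higher (COL1A2) and 1 lower (PDGFRA), and FLT1 of endothelium, STMN2 of neurons and GFAP of glia were lower. Each of these 5 calls was lost without CT6 light array 2, among others. NEFM of neurons was higher at CT22 than at CT14 (0.78), a call lost without CT14 light array 2 or CT22 light array 1. The part of these cell types in the time differences was not tested.

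Whether the differences were those of the dark was asked by setting each against the dark comparison of the same times. Light and dark comparisons share no array, though they share 1 estimate of the spread. In the dark, 802 probe sets (3.48%) differed between CT6 and CT14, 1506 (6.53%) between CT14 and CT22, and 256 (1.11%) between CT6 and CT22. Of the 160 that differed between CT6 and CT14 after light, 105 also differed in the dark in the same direction (65.6% of the light calls and 13.1% of the dark ones), and 1 in the opposite direction. For CT22 against CT14, 296 were shared in direction (37.5% of the light and 19.7% of the dark calls) and 22 were opposite. For CT22 against CT6, 107 were shared (14.8% and 41.8%) and 3 were opposite. The sign in the dark was that of the light for 91.9%, 79.3% and 76.9% of the light calls, against 54.6%, 52.2% and 54.1% of all probe sets. Probe sets that differed in the dark had, after light, a median difference in the dark direction of 0.152, 0.0999 and 0.386, against median sizes of 0.641, 0.657 and 0.647 in the dark itself. These probe sets were chosen by their dark values, so that the dark sizes are not independent of the choice. Left out singly, the CT6 and CT14 light arrays brought the 105 to 53 to 61. The 296 became 189 without CT14 light array 2 and 176 without CT22 dark array 1. The 107 became 62 and 56 without CT6 dark arrays 1 and 2, 64 without CT6 light array 2, and 46 and 56 without CT22 dark arrays 1 and 2.

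**Figure D3:**
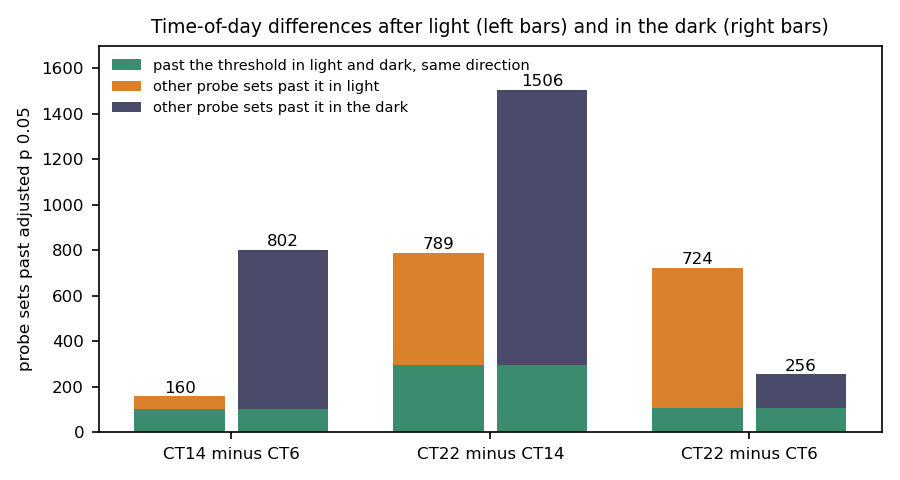
Number of probe sets (vertical axis) past adjusted p 0.05 for each pair of circadian times, higher and lower combined, after light (left bar of each pair) and in the dark (right bar). The green part of each bar is shared between light and dark in the same direction, 105, 296 and 107 probe sets for CT14 minus CT6, CT22 minus CT14 and CT22 minus CT6. The dark bars are the taller in the comparisons with CT14, and the light bar is the taller for CT22 minus CT6.

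Differences present in both states included those of G0S2, PER2, GNB3, SH3GLB2, SLC6A9 and KCNAB1 between CT6 and CT14. Dark differences for CT14 minus CT6 were 3.15 for G0S2 against 1.89 after light, -2.93 for PER2 against -1.85, 2.00 for GNB3 against 1.66, and 1.39 for SH3GLB2 against 1.49. Between CT14 and CT22 they included PPEF2 (-2.14 in the dark), PER3 (3.62), GABRR1 (-1.32) and INHBB (-2.61), against -3.40, 2.66, -2.41 and -2.26 after light. Between CT6 and CT22 they included BMP2 (1.78 in the dark and 1.65 after light), INHBB (-1.50 and -1.55), CRYAB, CRY1, NR1D2 and ARNTL. For INHBB the dark values were 5.91 and 5.90 at CT6, 6.99 and 7.03 at CT14, and 4.68 and 4.13 at CT22, close to those after light at each time. A further INHBB probe set gave -0.47 for CT22 minus CT6 after light and did not pass. For BMP2 the dark means were 7.77, 7.47 and 9.55, with no rise at CT14, whereas after light CT14 was already higher (interaction for CT14 minus CT6, lost without a variance trend or with the actin covariate, 1.41 ± 0.15, adjusted p = 0.00338).

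The difference between the light and the dark time differences passed at 27 probe sets for CT14 minus CT6 (0.117%), 525 for CT22 minus CT14 (2.28%) and 55 for CT22 minus CT6 (0.238%). These counts were sensitive to single arrays. The 27 became 17 and 52 without CT6 dark arrays 1 and 2, 16 without CT6 light array 1, and 12 and 11 without CT14 light arrays 1 and 2. The 525 became 172 without CT14 dark array 1, 273 and 150 without CT14 light arrays 1 and 2, 108 and 294 without CT22 dark arrays 1 and 2, and 164 without CT22 light array 2. The 55 became 112 and 34 without CT6 dark arrays 1 and 2, 34 and 21 without CT6 light arrays 1 and 2, 19 and 29 without CT22 dark arrays 1 and 2, and 24 without CT22 light array 2. With the actin ratio as a covariate, 1, 11 and 144 passed. The light difference was the higher in 23 (0.0997%), 281 (1.22%) and 36 (0.156%) of them and the lower in 4 (0.0173%), 244 (1.06%) and 19 (0.0824%). On the deposited scale it was the higher in 109 and the lower in 290 for CT22 minus CT14. With arrays centred on their median it was the higher in 12 and the lower in 11 for CT14 minus CT6, and the higher in 28 and the lower in 46 for CT22 minus CT6. Counted as genes, 17, 310 and 31 of 10406 had an interaction past the threshold, in the same order of pairs. In 12, 189 and 6 of all tested genes, locus symbols passed over, the interaction and dark difference passed and the light one did not. Most genes described next were chosen for the largest dark differences among genes with an interaction and no light call. Their smaller light differences are therefore part of the choice. RASL11A, a small GTPase of the RAS family, had dark means of 5.65, 3.30 and 6.10, and read 5.99 and 5.93 at CT6, 5.65 and 5.65 at CT14, and 6.00 and 5.49 at CT22 after light. The dark CT14 mean of 3.30 lies below the 3.73 limit for testing, so that the size of its dark differences is uncertain. The dark trough at CT14 was absent after light, and the light groups lay within 0.51 of each other. The difference for CT22 minus CT14 was 2.80 in the dark and 0.10 after light (interaction -2.70 ± 0.33, adjusted p = 0.00196). SLC4A7, a sodium bicarbonate cotransporter, had dark means of 10.27, 9.02 and 10.25, and read 10.53 and 10.59 at CT6, 10.74 and 10.72 at CT14, and 10.69 and 10.69 at CT22 after light, a spread of 0.21. CPLX4, a complexin of ribbon synapses, and the GTPase LSG1, which acts in ribosome export, lost a dark trough at CT14 in the same way. CPLX4 had dark means of 9.36, 8.48 and 9.84 and read 9.78 to 10.08 on the light arrays, and LSG1 had dark means of 7.30, 6.45 and 7.97 and read 8.69 to 9.07. The interaction of SLC4A7 for CT14 minus CT6 was 1.43 ± 0.09, adjusted p = 2.14e-05, and it and that of RASL11A for CT22 minus CT14 held when any 1 array was left out. The former was lost without a variance trend and the latter in the actin covariate fit. The CT14 minus CT6 interactions of CPLX4 (0.81) and LSG1 (0.92) were lost without either CT14 light array. That of LSG1 was also lost without any 1 of the CT6 light, CT14 dark and CT22 dark arrays or CT6 dark array 1. The CT14 minus CT6 interaction of RASL11A (2.05) was lost without any 1 of the CT6 arrays or CT14 light arrays, among others.

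Other genes lost a dark peak or a dark difference of another kind. SLCO1C1, a transporter of thyroid hormone, was highest in the dark at CT14 (means 8.91, 10.04 and 8.12), and after light read 8.06 and 8.13 at CT6, 8.48 and 8.23 at CT14, and 8.84 and 8.76 at CT22. SLCO1B3, GNG11 and SLCO1A2 were higher in the dark at CT14 than at CT22, with -1.73, -1.78 and -1.13 for CT22 minus CT14, and showed 0.27, 0.56 and 0.20 after light. The dark calls of SLCO1B3 and GNG11 were lost without CT22 dark array 1. NR2E3, a nuclear receptor of photoreceptors, and EGR1, an immediate early transcription factor, were higher in the dark at CT22 than at CT6, by 0.80 and 0.68, and showed -0.05 and -0.28 after light. Both dark calls were lost without CT22 dark array 1, and that of EGR1 also without CT22 dark array 2 or CT6 dark array 2. EGR1 read 9.28 and 9.26 at CT6, 9.05 and 9.39 at CT14, and 9.19 and 8.79 at CT22 after light, against dark means of 9.77, 10.06 and 10.45. RBP3, a retinoid carrier, had dark means of 7.23, 6.15 and 7.80 and 7.01 to 7.63 on the light arrays.

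**Figure D4:**
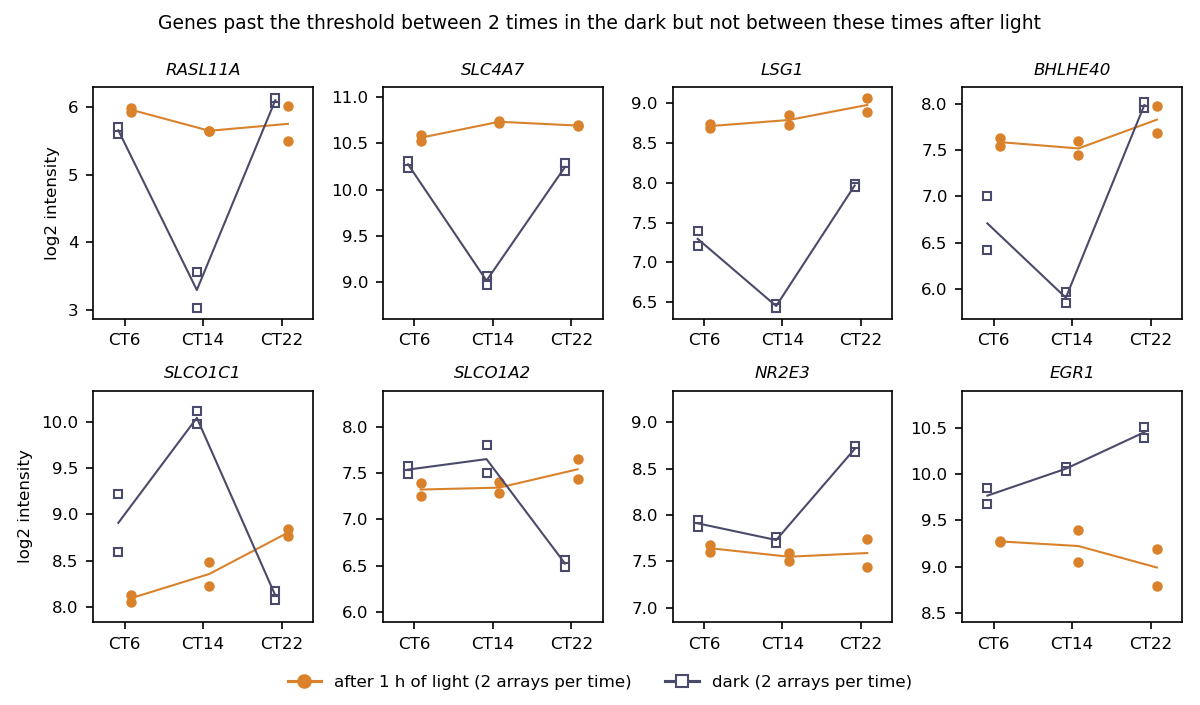
Log2 intensity (vertical axes, each panel with its own range) of 8 genes whose dark difference between 2 times passed the threshold and whose light difference did not. Orange dots are light arrays and open squares dark arrays, 2 of each per circadian time, with lines joining group means. The dark means of RASL11A fall to 3.30 at CT14, below the 3.73 limit for testing, while its light arrays stay between 5.49 and 6.00.

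In CT14 minus CT6, CT22 minus CT14 and CT22 minus CT6, interactions passed for 17, 310 and 31 of 10406 genes. Locus symbols passed over, 5, 60 and 16 genes had an interaction and a light difference past the threshold but no dark one. HSPB9, HSPH1, HSPB8, NXNL2, P4HA2 and TMEFF2 led them for CT22 minus CT14. Genes of this class were chosen by a light call and the lack of a dark one. Their smaller dark differences are therefore part of the choice. The interaction of HSPB9 passed in every alternative, while those of the other 5 were lost without a variance trend and with the actin ratio as a covariate. Leaving out CT14 dark array 1, CT14 light array 2, CT22 dark array 1 or CT22 light array 2 also ended the calls of HSPB8 and NXNL2, and leaving out CT22 dark array 2 that of HSPB8. P4HA2 had dark means of 5.91, 6.07 and 6.23, a difference of 0.15 for CT22 minus CT14 against 1.66 after light. HSPH1 showed -0.45 in the dark against 2.49 (interaction adjusted p = 0.00833). Between CT6 and CT22, BAG3, HERPUD1 and SERPINH1 showed 0.35, 0.48 and 0.02 in the dark against 2.33, 2.00 and 1.06 after light. Between CT6 and CT14, HSPA2 (-0.10 in the dark and 0.70 after light) and BMP2 belonged here, together with IFI27L2, ORAOV1 and the transcription factor MEF2D, whose interactions were lost without either CT6 light array. The HSPA2 interaction was lost without CT14 light array 2. Without a variance trend, none of the 27 probe sets with an interaction for this pair kept it, HSPA2 included. Opposite and significant differences in light and dark were found for few genes. DIO3 and TMEM27 were higher at CT22 than at CT14 after light (1.46 and 1.38, both lost without CT14 light array 2 or CT22 light array 2) and lower in the dark (-1.11 and -1.36). SLCO1C1 was higher at CT22 than at CT6 after light (0.71, lost without any 1 of the CT6 and CT22 light arrays) and lower in the dark (-0.78).

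**Figure D5:**
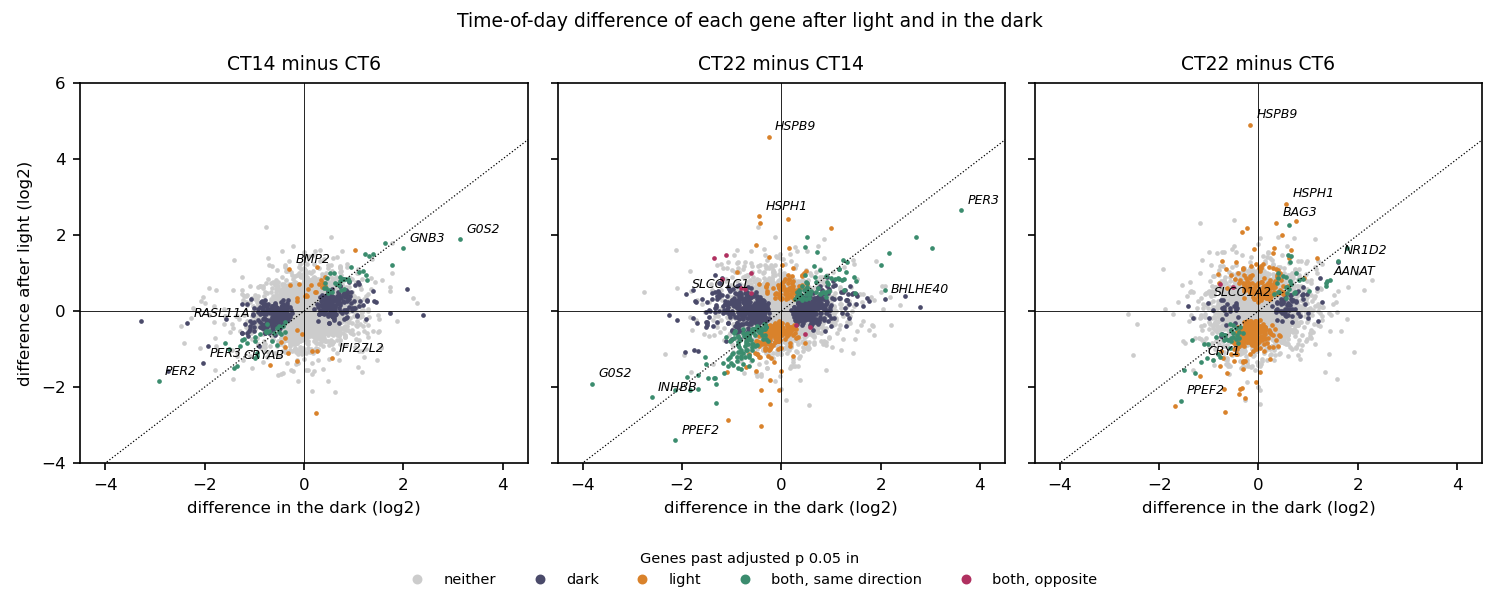
Log2 difference between circadian times for 10406 genes in the dark (horizontal axes) and after light (vertical axes), for CT14 minus CT6, CT22 minus CT14 and CT22 minus CT6. Each point is a gene, coloured by where it passed adjusted p 0.05, and the dotted line marks equal differences. HSPB9 lies far above the line at a light difference of 4.59 and a dark one of -0.26 for CT22 minus CT14, while GNB3 lies near the line for CT14 minus CT6. G0S2 for the same pair (1.89 after light and 3.15 in the dark) and PER3 for CT22 minus CT14 (2.66 and 3.62) lie off the line toward the larger dark difference, and BHLHE40 (0.31 and 2.08) lies near the horizontal axis.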

How the data were processed

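Affymetrix arrays were hybridised with labelled RNA from chicken pineal glands, 12 arrays in 6 groups of 2 taken from the labels. The authors deposited 1 linear intensity per probe set and array. Software, scaling and version behind these intensities were not given in the sources used here. Precision is limited by the number of arrays. Of 38535 probe sets, 96 controls were left out. The platform annotation supplied with the series named 1 gene for 27168 of the other 38439, and its gene IDs were updated through the reference gene table, which lacked 315 of the IDs. No genome was used here, so that no coordinates or sequences are given.

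Intensities were taken to log2, quantile normalized over the 12 arrays and floored at 1 on the linear scale. Testing was limited to the 23063 probe sets whose mean exceeded the 40th percentile, which named 10406 genes, each represented by its probe set with the highest mean. Limma 3.58.1 in R 4.3.3 estimated 6 group means, leaving 6 residual degrees of freedom, with a variance trend. The fit was also run on simulated arrays with independent noise and changes planted only at CT22 light. Effects shared within an array were not simulated, so that this run checked the code and not the calls. Contrasts were the differences between times after light, in the dark, and between these 2 (interaction), with a moderated F test over the 3 light groups. Benjamini-Hochberg adjustment ran over every tested probe set, separately for each contrast.

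Genes named were, per pair of times, up to 12 increases and 12 decreases after light. These had the largest differences among those past the threshold whose arrays did not overlap. Also named per pair were up to 6 past the threshold in light and dark with the same sign. Up to 6 more had an interaction and no light call, ranked by their dark difference, whether or not that passed. A last 6 at most had an interaction and a light call but no dark one. The 10 with the lowest p of the F test were added, and members of 28 gene lists holding 587 genes, of which 455 were tested. Genes with only a locus symbol (224 tested) were passed over. Of the other genes, 93, 423 and 422 passed for CT14 minus CT6, CT22 minus CT14 and CT22 minus CT6 after light. In all of them the arrays of the times compared did not overlap, so that this condition left none out. The comparison, members and lists were chosen with earlier results of these data known. Alternatives changed the scaling, the filter, a constant of 16 added before log2, the variance trend, the arrays fitted, a replicate block and the actin ratio as a covariate, and left out each array in turn. The fits with light arrays alone bear only on light comparisons. For 20 of the genes named for a light increase or decrease, further probe sets gave 42 differences. Some probe sets were counted for several pairs of times, so that the 42 are not independent. Of these differences, 40 had the same sign, 22 passed and 0 passed in the opposite direction.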

Additional observations from a re-analysis of the deposited data

Results flagged for a closer look

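All values here are interaction terms of the limma fit, the light difference between 2 times minus the dark one, that passed an adjusted p of 0.05, so that the difference between light and dark was itself tested. A positive value means that the later time minus the earlier was greater after light than in the dark. Beside the 27, 525 and 55 probe sets that passed for CT14 minus CT6, CT22 minus CT14 and CT22 minus CT6, the genes and list members named here gave the following values. Many of these calls were fragile. Of the 70 interactions of single genes, 47 were lost without some single array, 63 without a variance trend and 43 with the actin ratio as a covariate. Those that passed in every alternative in which they were tested were 6, namely BHLHE41, HSPB9 and SLCO1C1 for CT22 minus CT14, and BAG3, HSPA2 and HSPB9 for CT22 minus CT6.

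For CT14 minus CT6, values above 0 were found for the small GTPase RASL11A (2.05), the bicarbonate transporter SLC4A7 (1.43), the growth factor BMP2 (1.41), the phosphodiesterase PDE10A (1.11), the collagen COL1A1 (1.08), MEF2D (0.98), LSG1 (0.92), CPLX4 (0.81) and HSPA2 (0.80). IFI27L2 gave -1.80 and ORAOV1 -1.32. COL1A1 read 9.26 and 9.12 at CT6, 9.36 and 9.48 at CT14, and 9.41 and 9.53 at CT22 after light, with dark means of 9.44, 8.58 and 9.09.

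For CT22 minus CT14, HSPB9 gave 4.85, HSPH1 2.94, HSPB8 2.29, P4HA2 1.51, BAG3 1.43, HERPUD1 1.20, CRELD2 0.90, HSPA2 0.84, DNAJB9 0.72, DNAJA4 0.52, CANX 0.50 and ATF4 0.48. Other genes above 0 were DIO3 (2.58), SLCO1C1 (2.36), GNG11 (2.35), NXNL2 (2.24), SLCO1B3 (2.00), G0S2 (1.90), TMEFF2 (1.21), the folate receptor FOLR1 (1.18), CA9 (1.01), PDK3 (0.78) and CCN2 (0.77). Values below 0 were found for BHLHE40 (-1.77), RBP3 (-1.50), BHLHE41 (-1.38), AANAT (-0.97), the homeobox factor ISL1 (-0.79), DDC (-0.72), PDC (-0.62), RPE65 (-0.61) and PDE6G (-0.48), and also for RASL11A (-2.70), CCSAP (-1.37), HK1 (-0.74), CEBPB (-0.72), NDRG1 (-0.52) and ALDOC (-0.41). ISL1 read 11.82 and 11.91 at CT6, 12.11 and 11.94 at CT14, and 11.90 and 11.83 at CT22 after light, against dark means of 12.14, 11.79 and 12.42.

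For CT22 minus CT6, values above 0 were found for HSPB9 (5.07), BAG3 (1.98), WFIKKN2 (1.79), HSPA2 (1.64), HERPUD1 (1.52), SLCO1C1 (1.49), P4HA2 (1.35), SLCO1A2 (1.23), CAPSL (1.19), SERPINH1 (1.04), GLIPR1L (1.01), PDE10A (0.99), DNAJA4 (0.89), HSPA5 (0.79), DNAJA1 (0.65), COL1A2 (0.63) and HSP90B1 (0.61). Values below 0 were found for EGR1 (-0.97), NR2E3 (-0.85), NDRG1 (-0.72) and RAPGEF5 (-0.68). No group held enough arrays to test 1 array against the others.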

How the results depend on the processing

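No call of a named gene changed sign under any alternative run. Of 4913 values of 235 light differences under the alternatives, 4093 stayed on their side of the threshold and 820 no longer passed. Of 1398 values of 70 interactions, 494 no longer passed. The 10 genes with the lowest p of the F test passed under every alternative. Counts are given below in the order CT14 minus CT6, CT22 minus CT14 and CT22 minus CT6, and the cause of each change was not tested.

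Without a filter on low values, 584 probe sets passed the F test, 77 and 421 the first and last light comparison, 59 and 51 were shared with the dark there, and 2, 124 and 15 interactions passed, with 38439 probe sets tested. Without a variance trend, 301 passed the F test, 15, 333 and 192 the light comparisons, 9, 127 and 18 were shared with the dark, and 1, 18 and 6 interactions passed. The 1 for CT14 minus CT6 was not among the 27 called with the trend. On the deposited scale, 98 passed between CT6 and CT14, 59 of them shared with the dark, and 7 and 21 interactions passed in the first and last comparison. With the actin ratio as a covariate, 30 and 179 passed in the first 2 light comparisons, 25 and 122 were shared with the dark there, and 1, 11 and 144 interactions passed, while the median standard error between CT6 and CT14 light rose from 0.203 to 0.340. With the filter at the 60th percentile, 97 interactions passed for CT22 minus CT6.

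Leaving out 1 array at a time gave 575 to 951 probe sets in the F test, 83 to 169, 400 to 805 and 282 to 764 in the light comparisons, 53 to 118, 176 to 295 and 46 to 111 shared with the dark, and 11 to 52, 108 to 617 and 19 to 112 interactions. Where a group then held 1 array, that array was assumed to vary like the other groups. Deviations of same-numbered arrays from their group means correlated between -0.028 and 0.028, so that no effect shared by replicate number was seen. Whether same-numbered arrays were handled together cannot be told from these values. With the replicate number as a block, 856 probe sets passed the F test, 141, 779 and 694 the light comparisons, and 25, 468 and 47 interactions passed. Levels under log2 3.73 carry little information, and a small difference could be missed with 2 arrays per group.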

Other observations

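PDE10A, a phosphodiesterase of cyclic nucleotides, read 7.37 and 7.50 at CT6, 7.64 and 7.76 at CT14, and 8.23 and 8.09 at CT22 after light, with no overlap between the times. CT22 minus CT6 was 0.72 ± 0.11, adjusted p = 0.00354, and CT14 minus CT6 was 0.27 ± 0.11, adjusted p = 0.5. Its dark means were 7.33, 6.48 and 7.06, lowest at CT14. CHAC1, a glutathione-degrading enzyme induced by ATF4, had dark means of 5.88, 7.95 and 6.44. Its light arrays read 8.20 and 7.56 at CT6, 8.78 and 8.16 at CT14, and 7.92 and 8.20 at CT22, and no light difference passed. The light and dark time differences of CHAC1 did not differ past the threshold either, so that a loss of its dark differences after light was not shown. RAPGEF5, an exchange factor of RAP proteins, was higher in the dark at CT22 than at CT6 (0.73 ± 0.09, adjusted p = 0.00108) and read 8.88 and 9.06 at CT6, 9.36 and 9.35 at CT14, and 8.95 and 9.09 at CT22 after light, with 0.05 ± 0.09 for CT22 minus CT6.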
